A study of Saccharomyces cerevisiae with 29 samples.

Results

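The mitochondrial ribosomal protein genes described here are 65 of 5859 nuclear protein-coding genes (1.11%) in the annotation of L03, the budding yeast reference sequence of this study. They were chosen by name, as genes with an mRNA whose name starts with MRPL, MRPS or RSM, or with MRP followed by a digit. The study mapped ribonucleotides in the DNA of 14 Saccharomyces cerevisiae strains in 29 libraries. The strains carried wild-type polymerases, pol2-M644G, pol2-M644L, pol3-L612G, pol3-L612M, pol1-Y869A or pol1-L868M, each with rnh201-delta (16 libraries) or with RNH201 (13 libraries). Ribonucleotide counts are not used here, and strains are not compared. All values below are positions and lengths of annotated features along 1 sequence, without replicates, and their precision is limited by the number of genes.

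The mitochondrial ribosome translates the few messages of the mitochondrial genome, most of which encode membrane subunits of the respiratory chain and of ATP synthase. Its RNAs are mitochondrial, but nearly all of its proteins are encoded in the nucleus, made in the cytosol and imported into the matrix. The ribosome descends from that of the bacterial ancestor, so part of its proteins have bacterial counterparts and part have been added in mitochondria. In yeast most of these genes are needed for growth on carbon sources that require respiration and not for growth by fermentation.

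The names fitted the descriptions in the annotation. All 65 genes were described as mitochondrial ribosomal proteins, and MRP8 only as a putative one. All 65 carried a qualifier of experimental evidence on their coding sequence, against 80.7% of all genes. The RefSeq gene table for R64 held all 65 under the same symbols. For 63 of them it also gave the current family name, in which u marks proteins found in all domains of life, b those shared with bacteria and m those known only from mitochondria. MRP8 and RSM22, whose protein resembles methyltransferases, had no such name. By these names 37 genes belonged to the large subunit and 26 to the small subunit. MRP21 was described as a large subunit gene in the annotation and named bS21m, a small subunit protein, in the table. It is counted with the small subunit here.

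The large subunit genes comprised 15 universal, 8 bacterial and 14 mitochondrial families, and the small subunit genes 11, 5 and 10. Bacterial ancestry in the wider sense, u or b, was therefore shared by 39 of the 63 named genes.

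Mitochondrial ribosomal protein genes were short. Their median coding length was 714 bp (95% interval of the median 534 bp to 795 bp), against 1224 bp for all 5859 genes. The value of 714 bp is also the lower quartile of all genes. Only RSM22 and RSM23 were longer than the median of all genes. Below 1500 bp lay 64 of the 65 (98.5%), against 61.8% of all genes. Together the 65 genes held 45794 bp of coding sequence for 15200 residues.

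The shortest large subunit genes were MRPL39, MRPL33 and MRPL44. MRPL39, the counterpart of bacterial L33, had 213 bp for 70 residues on chromosome XIII from 251298 to 251510, minus strand. MRPL33, the counterpart of bacterial L30, had 261 bp for 86 residues at 841924 to 842184 on the plus strand of the same chromosome. MRPL44 (family mL53) had 297 bp for 98 residues. The longest large subunit genes were MRPL3 with 1173 bp, MRP7 with 1116 bp and MRPL35 with 1104 bp. MRPL3 encodes a protein related to ribonuclease III, and MRP7 the counterpart of bacterial L27.

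Among small subunit genes, RSM19, the counterpart of bacterial S19, was shortest, with 276 bp on chromosome XIV from 695008 to 695283, minus strand. MRP10, for a protein of the twin cysteine motif family, had 95 residues, and RSM27 had 333 bp. RSM22 was the longest of all 65 genes, with 1887 bp for 628 residues on chromosome XI from 159460 to 161346, minus strand. RSM23, whose human relative is DAP3, had 1466 bp, and MRP4, the counterpart of bacterial S2, had 1185 bp. The plot of coding lengths shows these extremes.

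**Figure D1:**
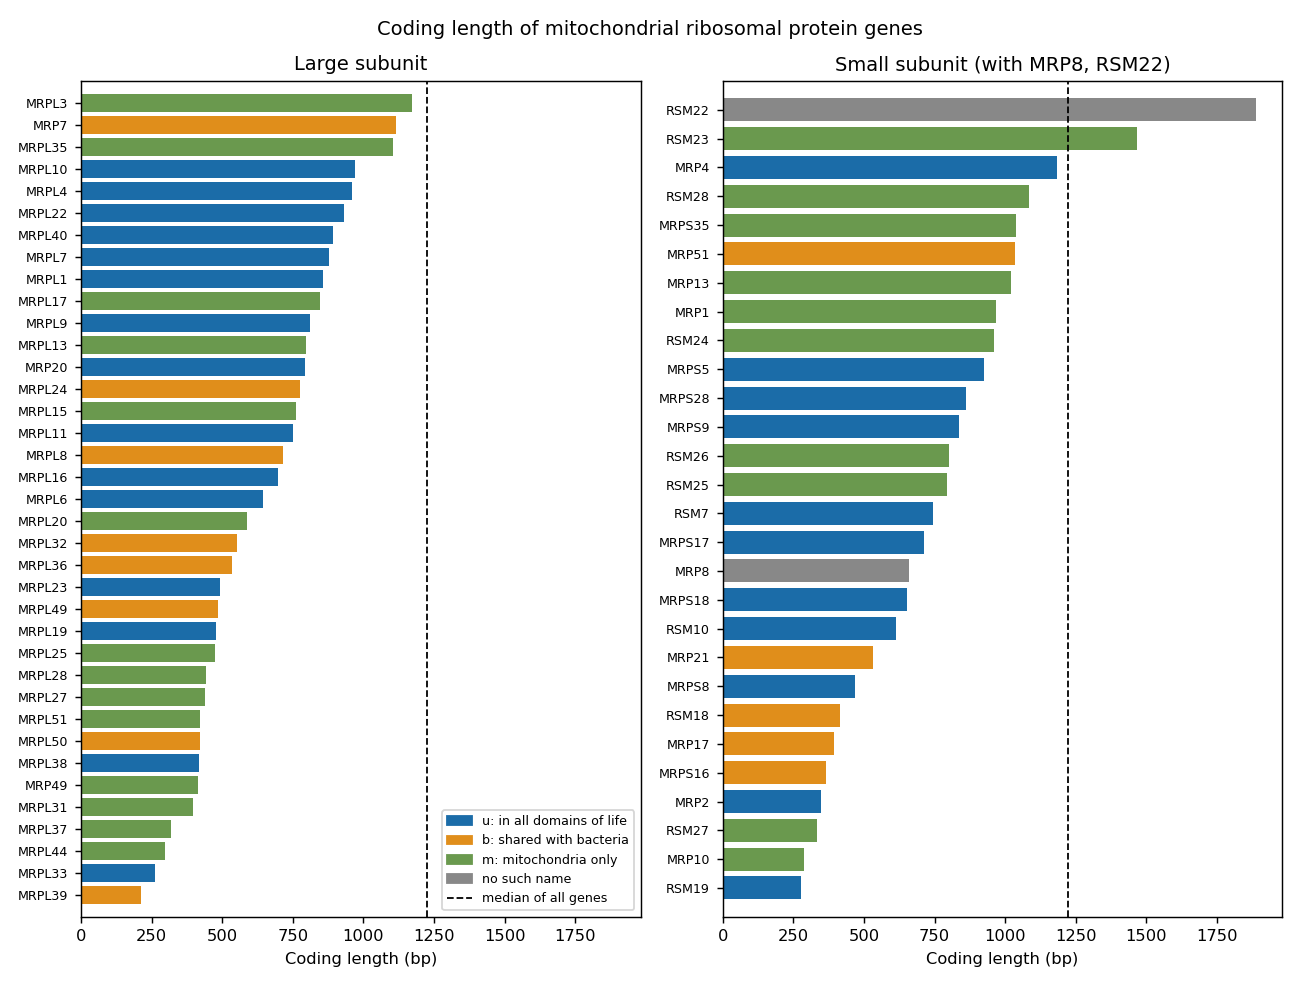
Coding length in bp (horizontal axis) of each of the 65 genes, 37 of the large subunit on the left and the others on the right. Colours give the family class, the dashed line is the median of all genes (1224 bp), and RSM22 and RSM23 are the only bars that pass it.

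The subunits and the family classes overlapped in length. Large subunit genes had a median of 645 bp (shortest 213 bp, longest 1173 bp). The 26 small subunit genes had one of 769.5 bp (shortest 276 bp, longest 1466 bp). RSM22, described as a small subunit gene but without a family name, is not among the 26. The median was 747 bp for the 26 universal families, 534 bp for the 13 bacterial ones and 778.5 bp for the 24 mitochondrial ones. With so few genes per class, the 95% interval for the mitochondrial class alone reached down to 423 bp.

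The coding length was what the stated protein requires for 64 of the 65 genes. The exception was RSM23 on chromosome VII, from 267724 to 269189 on the minus strand, where the coding feature of 1466 bp was 1 bp shorter than 488 residues and a stop codon need. Of all genes 1.54% differed in this way. The bases at RSM23 were not analysed here.

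Introns were nearly absent. MRPL44, on chromosome XIII from 720944 to 721387 on the minus strand, was the only gene of the 65 with a coding sequence in more than 1 segment, and its intron had 147 bp. That is 1.54% of the genes (95% interval 0.0389% to 8.28%), against 4.61% of all genes, a value inside that interval. Introns were counted as breaks of 20 bp or more between coding segments, so an intron in untranslated sequence could not be seen. Cytoplasmic ribosomal protein genes, which serve the other translation system of the cell, had an intron in 89 of 137 cases (65.0%). Their median coding length was 432 bp.

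The genes were spread over 14 of 16 chromosomes. Chromosome IV held 12 (MRPL11, MRP10, RSM10, MRPL1, RSM24, MRPL7, MRPL35, MRPS28, MRP1, MRP20, MRPL28 and RSM28), where its share of all genes would give 8.38. Chromosomes XI and XIV held 8 each, against 3.46 and 4.36 by gene number, and chromosomes II and XIII 7 each, against 4.50 and 5.10. Chromosome XV, with 536 genes, held only MRPL23 where its gene number would give 5.95. Chromosome XII held MRPL15 and MRPL4, where 5.64 would follow from 508 genes. Chromosomes I and VI, the shortest ones, held none, where 94 and 126 genes would give 1.04 and 1.40.

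The strand was balanced over the genome, with 35 of 65 genes on the plus strand (53.8%), against 50.5% of all genes. Some single chromosomes were uneven. On chromosome IV 10 of 12 genes and on chromosome II 6 of 7 lay on the plus strand, where 49.7% and 45.8% of all genes of these chromosomes did so. On chromosome XIV 7 of 8 and on chromosome XI 6 of 8 lay on the minus strand, where the plus strand holds 52.4% and 51.3% of all genes. Chromosomes XIII (4 plus, 3 minus), XVI (3 and 2), X (2 and 2) and VIII (1 and 1) were close to even, and VII had 2 and 4. The uneven chromosomes were singled out for their counts, and the unevenness was not tested. The plot by chromosome shows both the spread and the strands.

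**Figure D2:**
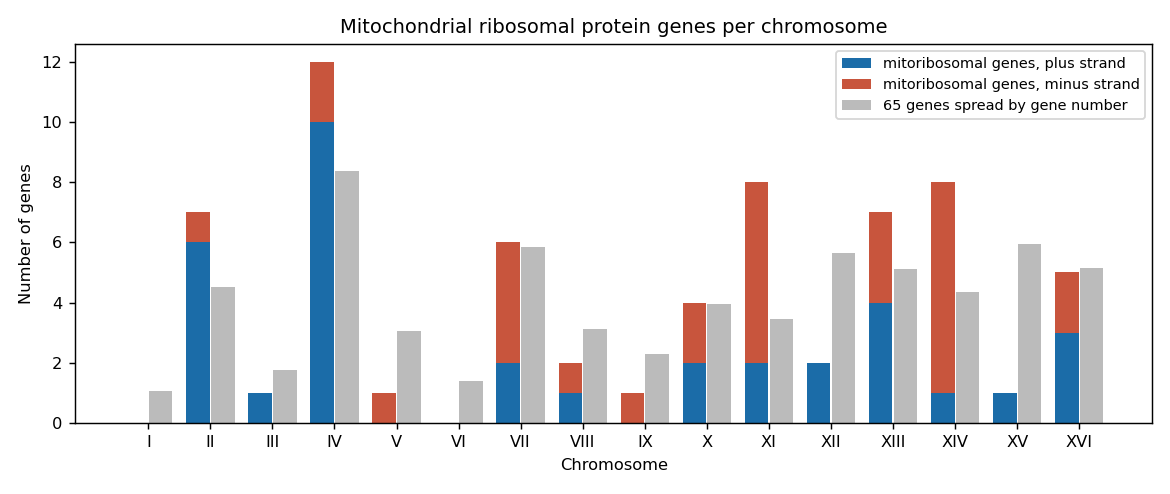
Number of mitochondrial ribosomal protein genes on each chromosome, stacked by strand (left bars), beside the number that 65 genes spread in proportion to gene number would give (right bars). Chromosomes XI and XIV held 8 each and chromosome XV held 1.

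None of the 65 genes had another of the set as direct neighbour (95% interval up to 5.52%), where 2.20% of all genes had one of the set beside them. That share follows from the size of the set and lies inside the interval, so a difference was not detectable with 65 genes. Consecutive genes of the set on a chromosome, 51 pairs, were separated by a median of 96.8 kb, from 2.67 kb to 368 kb. The closest were MRPL38 and MRP49 on chromosome XI, 2670 bp apart with KKQ8 alone between them. MRPL38 encodes the counterpart of bacterial L14 and MRP49 a protein of mitochondrial ribosomes only, and they point toward each other. Next came MRP8 and MRPL31 on the same chromosome, 6111 bp apart with 4 genes between. In all, 10 pairs lay within 20 kb, of which 4 had both genes on the same strand.

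Mitochondrial ribosomal proteins under other names did adjoin the set in 2 places. MRPL1, the counterpart of bacterial L1, faced YDR115W across 231 bp on chromosome IV with their 3′ ends toward each other. YDR115W, named MRX14 in R64, is described as similar to bacterial L34. RSM19 lay 229 bp upstream of YNR036C on chromosome XIV, both on the minus strand. YNR036C, named MRPS12 in R64, is similar to bacterial S12.

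Neighbours whose description mentions mitochondria were scattered. The match was to the word alone, so SDH3, for a subunit of succinate dehydrogenase beside MRP8, was not counted. A neighbour with such a description stood beside 20 of the 65 genes (30.8%, 95% interval 19.9% to 43.4%), MRPL1 and RSM19 among them, against 24.1% of all genes. The interval includes the value for all genes. Examples are TIM11, a subunit of ATP synthase, 310 bp from MRPL35, and COX10, an enzyme of heme A synthesis, 316 bp from MRPL40, both convergent. MSS1, which modifies mitochondrial tRNAs, was divergent from MRPL3 across 857 bp, and DSS1, a nuclease of the mitochondrial degradosome, was convergent with MRPL33 across 233 bp. A cytoplasmic ribosomal protein gene adjoined 5 of the 65 genes (7.69%), against 4.61% of all genes. These were RPL11B beside MRP13, RPS0A beside RSM27, RPS27A beside RSM22, RPL36A beside MRPL24 and RPS3 beside MRPL22. A tRNA or other RNA gene was the nearest gene on a side for 5 of the 65 genes (7.69%), against 8.53% of all genes.

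Gaps to the neighbouring protein-coding genes were compact and never negative. None of the 65 genes overlapped a neighbour (95% interval up to 5.52%), against 2.61% of all genes, so the difference was not detectable with 65 genes. All 130 flanking gaps were between 63 bp and 1335 bp long. Both gaps were under 600 bp for 50 of the 65 genes (76.9%, 95% interval 64.8% to 86.5%), against 54.7% of all genes. The limit of 600 bp and that of 300 bp below were chosen after the values were seen.

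The upstream gap, which holds the promoter, had a shorter median over the 65 genes together than over the genome as a whole. Its median was 342 bp (95% interval 282 bp to 423 bp) in the 65 genes, against 455 bp over all genes and 439 bp over all genes with less than 1500 bp of coding sequence, both outside that interval. The difference was not tested. For the 35 plus strand genes alone the median was 442 bp (95% interval 342 bp to 538 bp). That interval includes the 458 bp of all plus strand genes. Gaps under 300 bp lay upstream of 27 of the 65 genes (41.5%), against 27.7% of all genes. The downstream gap had a median of 279 bp (95% interval 244 bp to 307 bp), against 304 bp over all genes, a value inside that interval.

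The upstream neighbour was divergent, sharing the promoter gap head to head, for 38 of the 65 genes (58.5%, 95% interval 45.6% to 70.6%), against 51.8% of all genes. The downstream neighbour was convergent for 39 (60.0%, 95% interval 47.1% to 72.0%), against 51.6%. Both types together occurred for 24 genes (36.9%), against 27.7%, and tandem neighbours on both sides for 12 (18.5%), against 24.2%. Each of these 4 intervals includes the value for all genes.

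Divergent gaps differed most in length. The 38 divergent upstream gaps had a median of 337.5 bp (95% interval 271 bp to 486 bp), against 542.5 bp over all divergent gaps. Over all genes with less than 1500 bp of coding sequence it was 502 bp. The 16 divergent gaps of minus strand genes had a median of 271.5 bp (95% interval 247 bp to 372 bp). The 22 of plus strand genes had one of 467 bp (95% interval 306 bp to 632 bp), an interval that includes 542.5 bp. The shortest of the 38 was 175 bp, between MRPL20 and PRP16, a splicing helicase gene, on chromosome XI. It was followed by 196 bp between MRP21 and MAP2, 203 bp between MRPS8 and AIM36, 216 bp between MRPL13 and MEH1, and 224 bp between MRPL50 and SNF12. MAP2 encodes a methionine aminopeptidase, and SNF12 a subunit of the SWI/SNF chromatin remodelling complex. The longest was 1335 bp, between RSM10 and ENA1, a sodium pump gene, on chromosome IV.

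Tandem upstream gaps had a median of 342 bp, against 400 bp over all genes, and tandem downstream gaps one of 302.5 bp, against 400 bp. Convergent downstream gaps had one of 244 bp, against 229 bp. The shortest tandem upstream gap, 104 bp, separated RSM23 from CWC23. The shortest downstream gap, 63 bp, separated RSM7, the counterpart of bacterial S7, from YJR112W-A. Convergent gaps thus had nearly the length seen over the genome, while the divergent and the tandem downstream ones were shorter, as the plot of gaps shows. The 95% interval of the median was 258 bp to 336 bp for tandem downstream gaps.

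**Figure D3:**
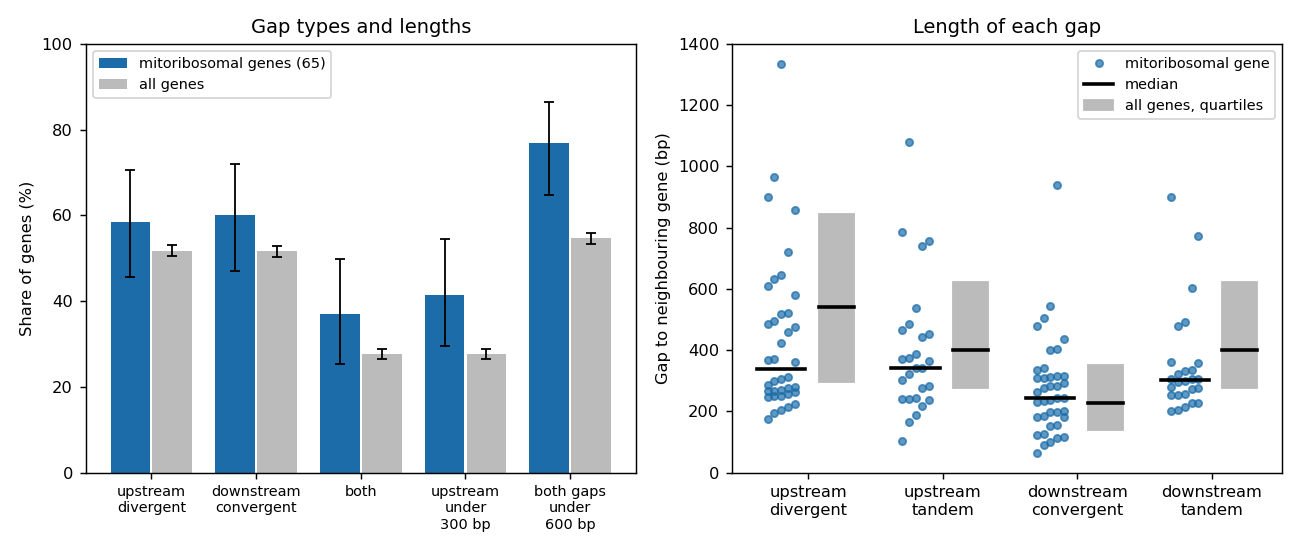
Left, share of the 65 mitochondrial ribosomal protein genes and of all genes with each type or length of gap, in percent, with exact binomial 95% intervals; "both" means divergent upstream and convergent downstream. Right, each gap of the 65 genes in bp (points, with medians as lines) beside the median and quartiles over all genes; divergent gaps had a median of 337.5 bp in the set and 542.5 bp over all genes.

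An origin of replication is the site from which leading and lagging strands are started, and so sets which polymerase copies which strand of a gene. The median distance from the middle of a gene to the middle of the nearest annotated origin was 13.9 kb for the 65 genes (95% interval 11.8 kb to 17.4 kb), against 13.5 kb for all genes. The quartiles were 4.98 kb and 19.8 kb, against 6.29 kb and 24.1 kb. The centre of the distribution was therefore that of the genome.

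The spread over distance classes was uneven. Within 5 kb of an origin lay 17 of the 65 genes (26.2%, 95% interval 16.0% to 38.5%), against 20.2% of all genes. Between 5 kb and 10 kb lay only RSM26, RSM22 and RSM24 (4.62%), where 18.1% of all genes lay. Between 10 kb and 20 kb lay 29 (44.6%), against 29.0%. Beyond 20 kb and up to 30 kb lay 6 (9.23%), against 16.0%, and beyond 30 kb lay 10 (15.4%), against 16.7%. The limits of 20 kb and 30 kb, and the use of these classes, were chosen after the distances were known.

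The nearest to an origin was MRPL37 (family mL54), on chromosome II from 741262 to 741579, plus strand, with its middle 0.245 kb from ARS224. MRPL6, the counterpart of bacterial L6, followed at 0.692 kb from ARS818 on chromosome VIII. MRPL24, the counterpart of bacterial L28, was 0.994 kb from ARS1325, MRPL35 was 1.06 kb from ARS452 and MRPL4 was 1.06 kb from ARS1233. All 5 are large subunit genes, as is the sixth, MRP20, the counterpart of bacterial L23 at the exit of the peptide tunnel, at 1.70 kb from ARS434. The nearest small subunit gene was MRPS17 at 2.05 kb from ARS1324. Within 5 kb of an origin, however, lay 10 of 37 large subunit genes (27.0%) and 7 of 26 small subunit genes (26.9%), and the median distances were 13.9 kb and 13.7 kb.

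Of these, 4 had the middle of an origin in a flanking gap (6.15% of the 65 genes, against 8.59% of all genes). The middle of ARS224 lay in the gap of 543 bp downstream of MRPL37, with 0.0 kb between the edges of origin and gene. ARS818 lay in the gap of 941 bp downstream of MRPL6. ARS452 lay in the gap of 741 bp upstream of MRPL35, and ARS1325 in that of 755 bp upstream of MRPL24. These gaps were all longer than the median gap on the same side of the 65 genes. They were picked for holding the middle of an origin, which a longer gap does more easily, so their length says little.

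The farthest was MRPL40, the counterpart of bacterial L24, on chromosome XVI from 223134 to 224027, 66.0 kb from ARS1614. It was followed by MRPS9 at 48.8 kb from ARS216, MRPL9 at 41.4 kb from ARS733, MRP51 at 37.6 kb from ARS1614 and MRPL44 at 37.2 kb from ARS1327. MRPS9 and MRPL9 encode the counterparts of bacterial S9 and L3. ARS1614 lay between MRPL40 and MRP51, both on the plus strand, so that MRPL40 pointed toward it and MRP51 away from it.

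Of the 65 genes, 37 were transcribed away from the nearest origin (56.9%, 95% interval 44.0% to 69.2%), against 49.6% of all genes. Large subunit genes did so in 24 of 37 cases (64.9%, 95% interval 47.5% to 79.8%) and small subunit genes in 13 of 26 (95% interval 29.9% to 70.1%). All 3 intervals include the value for all genes. Within 5 kb of an origin, 9 of 17 genes pointed away (52.9%), where 45.7% of all genes within 5 kb did so, and farther out 28 of 48 (58.3%), where 50.6% did so. The plot of origin distances shows the genes of both subunits by direction.

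**Figure D4:**
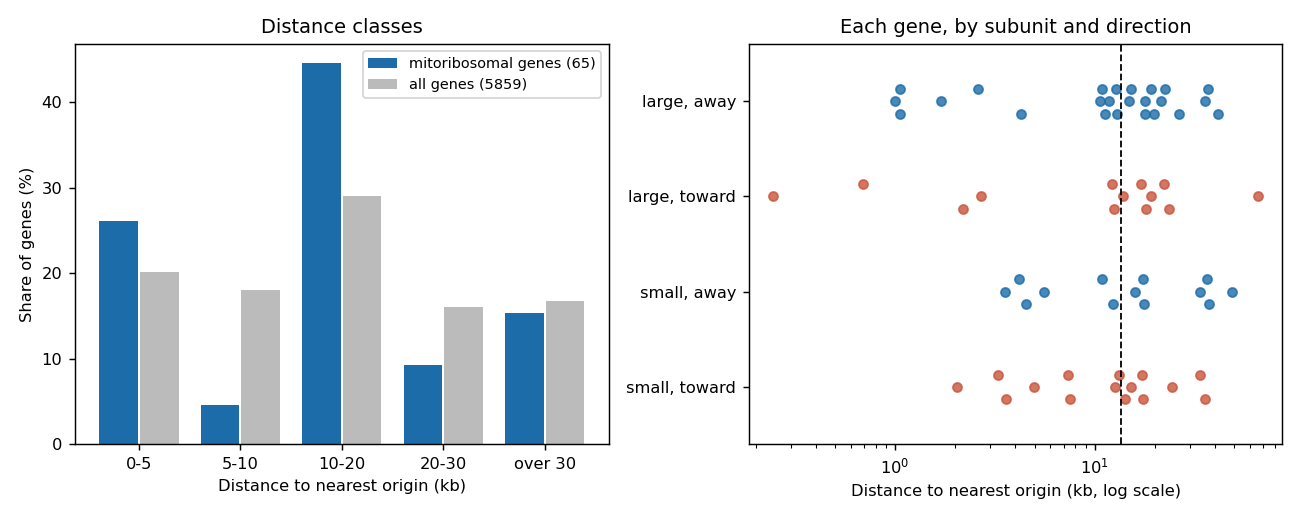
Left, share of the 65 genes and of all 5859 genes in each class of distance to the nearest origin, in percent; between 5 kb and 10 kb lay 3 of the 65 genes. Right, distance of each gene in kb on a log scale, by subunit and by direction of transcription relative to that origin (MRP8 and RSM22 are drawn with the small subunit); the dashed line is the median of all genes, 13.5 kb.

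The 65 genes lay in 55 intervals between origins, of which 9 held more than 1 of them. The fullest held RSM22, MRP8 and MRPL31 on chromosome XI. As their nearest origin they had 57 different ones of 274, and 50 of these served 1 gene each. ARS1106 was nearest to MRPL38, MRP49 and RSM22.

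None of the 65 genes lay within 25 kb of a chromosome end (95% interval up to 5.52%), against 5.31% of all genes, a value inside that interval. MRPL27 was nearest at 44.5 kb, then MRP21 at 48.8 kb, MRPS18 at 58.2 kb, MRPL4 at 62.7 kb and MRPL20 at 67.1 kb. Within 10 kb of a centromere lay 4 genes (6.15%, 95% interval 1.70% to 15.0%), against 2.94% of all genes. These were MRP17, the counterpart of bacterial S6, at 2.89 kb on chromosome XI, MRPL32 at 4.45 kb on chromosome III, MRP4 at 5.83 kb on chromosome VIII and MRP7 at 6.95 kb on chromosome XIV.

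Other genes of mitochondrial translation were read from lists for comparison. A list of 14 genes linked to the mitochondrial ribosome under other names, among them IMG1, IMG2, NAM9 and PET123, had a median coding length of 633 bp. It holds YMR31 and PPE1, described as mitochondrial ribosomal proteins in the annotation but without such a name in R64. It lacks YDR115W, YNR036C, QRI5 and YNL122C, which have such a name there. YML6, the counterpart of bacterial L4, was the member with an intron, of 99 bp. In this list 4 of 14 genes pointed away from the nearest origin (28.6%, 95% interval 8.39% to 58.1%), against 37 of 65 in the set. Of the 16 genes outside the set that have a mitochondrial ribosomal protein name in R64, 6 did so (37.5%, 95% interval 15.2% to 64.6%). Both intervals include the 49.6% of all genes. RML2, the counterpart of bacterial L2, lay 0.861 kb from ARS507.

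The 9 translation factors, such as the elongation factor gene TUF1, had a median coding length of 1314 bp. The 13 mitochondrial aminoacyl-tRNA synthetases, which charge tRNAs in the matrix, had one of 1611 bp. The 14 activators of single mitochondrial messages, such as PET111 and PET309, had one of 1390.5 bp, and the 8 genes of ribosome assembly and rRNA modification, such as MRM1 and MRM2, one of 1370 bp. Of these, 7 translation factors, 4 synthetases, 8 activators and 5 assembly genes pointed away from their nearest origin. Within 5 kb of an origin lay 4, 0, 1 and 1 of them. Over all genes 49.6% pointed away and 20.2% lay within 5 kb. With 8 to 14 genes per list these counts are imprecise, and they were not tested against those shares. None of the genes in these last lists had an intron or overlapped a neighbour, against 4.61% and 2.61% of all genes. At such low shares, few or none would be found in lists of this size.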

How the data were processed

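The only deposited file used was the annotation of L03. It gives start and end positions, numbered from 1, which the authors derived from the yeast database SGD (strain S288C, release R64-1-1), per the file header. No source used here states how positions were transferred. Reads, not used here, went through cutadapt 1.2.1 and Bowtie 0.12.8, per the submitters' processing notes. Strain labels gave the groups.

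Neighbours were the protein-coding genes before and after a gene in order of midpoints. Direction was called away where transcription of the gene ran from its nearest origin's side outward, by midpoints. Family names came from the RefSeq table of R64, used only for names and gene order. All 130 neighbour pairs were also neighbours there. Genes named by rule were the 3 longest and 3 shortest per subunit, those with an intron or a length unlike the stated protein, the 5 nearest to and 5 farthest from an origin, the 5 nearest to a chromosome end, the 3 nearest to a centromere, and those with the 5 shortest divergent gaps. Others were named after their values were seen. The 65 genes, the lists and the rule were chosen with earlier results of these data known. No hypothesis test was run. Intervals are exact binomial, and for medians exact order-statistic, 95% intervals, which treat genes as independent although neighbours are not. All genes include the 65. The geometry was tested on simulated data. Protein and genome sequences were not used here. Tools were matplotlib 3.10.9, scipy 1.17.1, numpy 2.4.6 and Python 3.11.15.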

Additional observations from a re-analysis of the deposited data

How the results depend on the processing

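Of 228 alternative values, 226 lay inside the 95% interval of the value reported. Most of these values came from sets that lacked 1 chromosome and so shared most of their genes with the full set. The sets without chromosome I or VI, which hold none of the 65 genes, were the full set itself. The tally could therefore hardly have come out otherwise and says little about how stable the results are. Within 2.5 kb of an origin lay 8 of 65 genes (12.3%), against 10.7% of all genes, where the limit of 5 kb gave 26.2%. The smaller limit itself makes the share lower. The limit of 10 kb gave 20 of 65 genes (30.8%, 95% interval 19.9% to 43.4%), against 38.3% of all genes. The share was thus above that of all genes at 2.5 kb and 5 kb and below it at 10 kb. Without chromosome XIII, which holds MRPL44, 0.0% of genes had an intron. Over the sets that each lacked 1 chromosome, the share pointing away ranged over 53.4% to 61.4%, with 13.1 kb to 14.8 kb for the median distance to an origin, and 312 bp to 364 bp for the median upstream gap. The share on the plus strand was 47.2% without chromosome IV. All 79 genes with a mitochondrial ribosomal protein name in R64, an alternative chosen after the file was seen, gave 54.4% pointing away, a median coding length of 654 bp and a median upstream gap of 322 bp. Adding the other genes described as mitochondrial ribosomal proteins, 77 in all, gave 53.2% pointing away, a median coding length of 699 bp, 2.60% with an intron and 1.30% overlapping a neighbour. Keeping only members so described, or only those with experimental evidence, kept all 65 genes and so tested nothing. Protein composition was not run, as protein sequences were not used here. No paired analysis was possible because the annotation is 1 table without replicates. The precision is limited by having 65 genes, not by sequencing depth.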

Other observations

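The upstream gaps differed between the strands in the set. The 35 genes on the plus strand had a median upstream gap of 442 bp (95% interval 342 bp to 538 bp) and the 30 on the minus strand one of 271.5 bp (95% interval 240 bp to 322 bp). Over all genes the medians were 458 bp on the plus strand and 452 bp on the minus strand. Downstream gaps in the set had medians of 278 bp on the plus strand and 283.5 bp on the minus strand. The strand split was looked at after the values were seen, and the difference was not tested.

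Universal families had a median upstream gap of 448 bp (95% interval 312 bp to 521 bp, which includes the 455 bp of all genes). The median was 271 bp for the 13 bacterial families and 303.5 bp for the 24 mitochondrial ones. A convergent downstream neighbour stood beside 18 of 26 universal, 8 of 13 bacterial and 12 of 24 mitochondrial families, against 51.6% of all genes. Neither difference was tested. The median distance to the centromere was 287 kb in the 65 genes (95% interval 229 kb to 333 kb), against 215 kb over all genes. Even so, 4 of the 65 lay within 10 kb of a centromere. The difference in medians was not tested. The chromosomes that hold the genes were not separated from the position of the genes along them.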
